A study of Rattus norvegicus with 16 samples.

Results

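The nuclear genes for the subunits of the mitochondrial respiratory chain were followed in dorsal root ganglia (DRGs) of rats with a bone tumor. Members were all genes whose symbol in the deposited tables begins with Nduf followed by a, b, c, s or v, with Uqcr, with Cox and a digit from 4 to 8, or with Atp5, together with Sdha, Sdhb, Sdhc and Sdhd. This rule took 92 of the 21021 genes listed, without use of any expression value. By complex they were 35 subunits of complex I and 7 of its assembly factors, 4 subunits of complex II, 8 of complex III, 10 common subunits of complex IV, 15 of complex V, 3 muscle forms and 6 other tissue forms or relatives of complex IV subunits, 2 further Atp5 genes, and 2 copies of other members.

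The animals were adult female Sprague-Dawley rats, and 1 sample held the DRGs of spinal levels L3 to L5 on the injected side of 1 rat. In the tumor cell implantation (TCI) groups, Walker 256 rat mammary carcinoma cells were placed in the left tibia and ganglia were taken on day 1, 7 or 14. Sham rats had the same operation, with phosphate-buffered saline by the sample labels but boiled tumor cells by the study's methods, and their ganglia were taken on day 14. For days 1 and 7, tumor and postoperative time therefore cannot be told apart. Each of the 4 groups had 4 samples. The study left out replicate 2 of day 1 and replicate 3 of day 7 for low correlation with the other samples, so the comparisons below rest on 14 samples, and the samples left out are given apart.

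The respiratory chain lies in the inner mitochondrial membrane. Complex I takes electrons from NADH and complex II takes them from succinate. Both hand them to ubiquinone, complex III passes them on to cytochrome c, and complex IV passes them to oxygen. Complexes I, III and IV pump protons as they do so, and complex V, the ATP synthase, uses the proton gradient to make ATP. Sensory neurons depend on this supply for firing and for axonal transport. Some complex IV subunits exist as separate genes for striated muscle and for other tissues. The subunits encoded by mitochondrial DNA were not analysed here.

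A whole ganglion is a mixture of neurons, glia, vessels and blood-borne cells, and less RNA per cell cannot be told apart from fewer cells of a type. The summed level of 19 neuron markers was 16300 to 20500 FPKM (fragments mapped to a gene, scaled to transcript length and to the fragments mapped in the library) in the 14 samples, as fits the labelled tissue. The 15 macrophage markers summed to 77.8 to 144 FPKM in sham and 103 to 122 in the kept day 1 samples. They reached 1020 to 1370 FPKM in the kept day 7 samples and between 577 and 1980 by day 14. Replicate 3 of day 7 held 29950 FPKM of 20 skeletal muscle markers and sham replicate 4 held 695, against 19.1 to 37.3 in the other kept samples. The tables hold no read totals, so the depth behind a single FPKM value is not known. Each sample came from a different rat, and p-values measure the spread between rats.

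The common subunits were among the well expressed genes of the ganglion. FPKM is scaled by transcript length, so that levels can be set side by side between genes. In sham samples the median subunit was at 97.4 ± 1.79 FPKM in complex I (SD over the samples, n = 4), 84.7 ± 2.13 in complex II, 143 ± 2.76 in complex III, 320 ± 4.47 in complex IV and 215 ± 4.41 in complex V. Complex IV had the highest median level and complex II the lowest. Complex II did not overlap its neighbour in this order, complex I, with sample medians of at most 86.3 FPKM against at least 96 FPKM.

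The highest single level in sham was that of Atp5b, the catalytic beta subunit of ATP synthase, at 759 ± 7.98 FPKM (SD, n = 4). Cox6a1, the common form of subunit 6a of complex IV, followed at 630 ± 2.71 FPKM. Uqcr11 led complex III at 209 ± 9.25 FPKM and Ndufs5 led complex I at 205 ± 2.71, levels that do not differ beyond their spread. Sdhb, the iron-sulfur subunit of succinate dehydrogenase, led complex II at 114 ± 1.76 FPKM. The 7 assembly factors of complex I, which help to build it and are not part of the finished enzyme, lay far lower, from 8.52 FPKM for Ndufaf4 to 20.5 for Ndufaf5. The plot of levels in sham shows these steps between complexes.

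**Figure D1:**
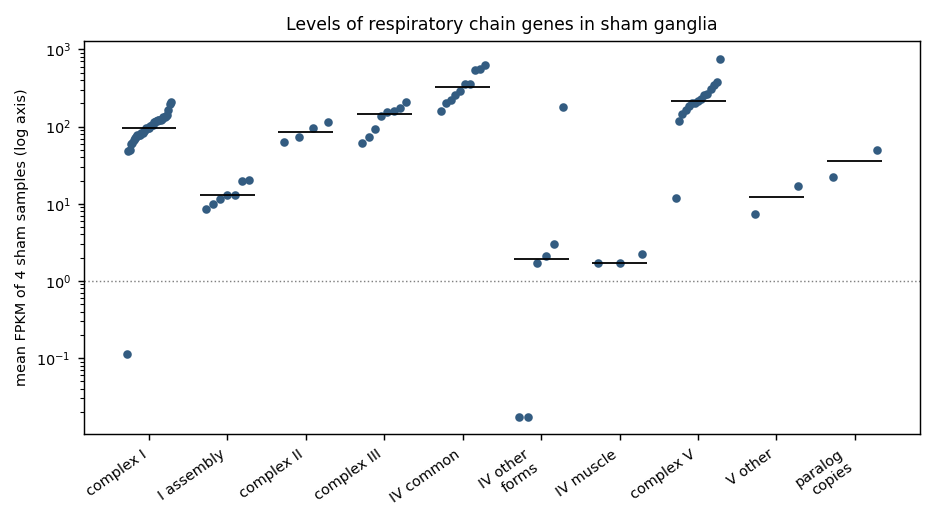
Mean FPKM of each of the 92 genes over the 4 sham samples (vertical log axis), by complex (horizontal axis). Each point is 1 gene, the short line is the median of its class, and the dotted line marks 1 FPKM. Subunits of complexes I to V lie at or above 47.6 FPKM (Ndufs4) except Ndufs6 and Atp5f1. The muscle forms lie between 1.69 and 2.21 FPKM. Without sham replicate 4, which held muscle RNA, the sham means of Cox6a2 and Cox8b were 0.187 and 0.5 FPKM.

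The symbols of the tables left some subunits out of reach of the rule. The table's Ndufs6 was at 0 in 14 of 16 samples with a highest value of 0.45 FPKM, and in RefSeq its identifier belongs to a pseudogene. The coding Ndufs6 gene was listed under a provisional symbol at 41.8 FPKM in sham. Of the 92 identifiers, 91 were found in the RefSeq gene table of assembly GRCr8, which gave 9 coding genes of the chain that the tables list under other symbols. Among them were Cox6b1 at 364 FPKM in sham, Atp5if1, the inhibitor of ATP synthase, at 275, and Ndufa13 at 175. The 8 of these that could be tested were not called on any day, with differences from sham of -0.04 to 0.33 in log2(FPKM + 1) and a smallest limma adjusted p of 0.177. They were found after the values had been seen and are not counted as members below.

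Promoter sequence is shown for 3 genes of complex IV that differ in tissue use and for 2 subunits whose level passed the test below. Windows of 250 bases before the transcription start came from RefSeq, assembly GRCr8, and 78 of the 92 members had an entry. The letters searched, on both strands, were GCGCA followed by any base and GCGC for nuclear respiratory factor 1 (NRF1), CCGGAAG for ETS factors such as NRF2, AAGATGGC for YY1, CTA and TAG with any 4 bases between them for MEF2 of muscle and CAGCTG, an E-box of the kind that muscle factors bind. The first 3 are known from promoters of respiratory genes. Capitals mark the matches, which are descriptions of letters and not shown to be binding sites. No 2 matches overlapped in the windows shown.
Cox8a, common form of subunit 8, chr1:213833624-213833873, minus strand, with 2 ETS matches read on the other strand: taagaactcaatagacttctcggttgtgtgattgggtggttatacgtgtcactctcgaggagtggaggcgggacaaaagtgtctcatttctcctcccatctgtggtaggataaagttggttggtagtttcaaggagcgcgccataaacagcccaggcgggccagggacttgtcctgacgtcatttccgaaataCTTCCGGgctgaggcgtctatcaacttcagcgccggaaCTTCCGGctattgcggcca
Cox8b, muscle form of subunit 8, chr1:205408274-205408523, minus strand, with 2 E-box matches: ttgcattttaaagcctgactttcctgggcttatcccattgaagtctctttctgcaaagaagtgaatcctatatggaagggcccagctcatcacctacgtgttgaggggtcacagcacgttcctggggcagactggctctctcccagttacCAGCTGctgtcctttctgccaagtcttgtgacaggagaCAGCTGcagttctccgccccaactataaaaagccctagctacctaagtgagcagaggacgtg
Cox6a2, muscle form of subunit 6a, chr1:192219717-192219966, minus strand, with 1 E-box and 1 MEF2 match: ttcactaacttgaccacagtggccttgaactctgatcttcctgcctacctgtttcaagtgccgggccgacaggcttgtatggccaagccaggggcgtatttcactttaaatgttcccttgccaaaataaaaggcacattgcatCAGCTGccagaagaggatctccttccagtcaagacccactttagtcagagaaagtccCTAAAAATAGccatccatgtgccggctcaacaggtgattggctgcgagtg
Ndufs1, core subunit of complex I, chr9:72073606-72073855, minus strand, with 1 ETS match read on the other strand: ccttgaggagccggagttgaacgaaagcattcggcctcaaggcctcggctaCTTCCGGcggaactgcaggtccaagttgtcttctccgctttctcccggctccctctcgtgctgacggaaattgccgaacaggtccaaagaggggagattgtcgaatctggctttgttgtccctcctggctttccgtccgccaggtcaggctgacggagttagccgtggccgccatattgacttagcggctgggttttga
Atp5g2, subunit c of complex V (Atp5mc2 in RefSeq), chr7:135678219-135678468, minus strand, with 1 NRF1 match: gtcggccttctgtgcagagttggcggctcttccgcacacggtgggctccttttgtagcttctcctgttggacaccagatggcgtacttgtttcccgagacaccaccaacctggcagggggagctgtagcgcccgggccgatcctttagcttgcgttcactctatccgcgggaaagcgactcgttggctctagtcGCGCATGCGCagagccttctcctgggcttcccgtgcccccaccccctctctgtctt

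The NRF1 letters were in 12 of the 78 member windows (15.4%) and in 4.17% of all 27457 windows. The ETS letters were in 19 member windows (24.4%) against 7.74% of all. The YY1 letters were in 2.56% of member windows and 1.69% of all. At least 1 of these 3 motifs was found in 30 member windows (38.5%), against 12.6% of all. The E-box letters were about as frequent in members (11.5%) as in all windows (11.9%), and the MEF2 letters were in 2 member windows (2.56%) against 3.43%. The motif matches were not tested against the expression values.

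The first question was whether the chain changed after implantation. Differences are in log2(FPKM + 1), positive where the tumor group was higher, and a gene is called where the limma adjusted p, over all genes tested, was at most 0.05. Of the 92 members, 87 reached 1 FPKM in 3 or more of the 14 samples and were tested among 14023 genes. The other 5, namely Ndufs6, Cox6a2, Cox8b, Cox7b2 and Cox8c, did not pass this filter. Of the members tested, 85 were at or above 1 FPKM in all 14 samples.

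On day 1 no member was called by limma, and no gene of any kind was called (0%). At an unadjusted p under 0.05 stood 3 members, Ndufa2, Ndufs1 and Ndufa4l2, while 5.23% of all genes stood there. The median difference of the members was 0.032, with 65 of 87 above 0, and that of all genes was 0.001.

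On day 7, 2 members were called and 3 had an unadjusted p under 0.05, while 17.9% of all genes tested were called and 31.2% had such a p. Atp5g2 rose and Ndufs1 fell. Among all genes 14.5% were called higher and 3.45% lower. The median difference was 0.007 over the members, with 47 of 87 above 0, and 0.042 over all genes. The median size of a difference, whatever its sign, was 0.057 for members and 0.118 for all genes.

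On day 14, 2 members were again called and 5 had an unadjusted p under 0.05, while 15.1% and 29.9% of all genes did so. Ndufs1 fell and Atp5sl rose. Among all genes 11.9% were called higher and 3.21% lower. The median difference of the members was -0.008, with 39 of 87 above 0, against 0.025 over all genes. With the study's cut-offs, an adjusted p up to 0.001 and a log2 difference of 1 or more in either direction, limma called 0 members on any day, against 1.83% of all genes on day 7 and 0.642% on day 14.

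Few calls could come from wide errors, so the intervals were examined. Atp5f1 and the copies Ndufa10l1 and Cox7a2l2 had erratic values and are described apart. For the other 70 tested subunits of the common chain, the 95% intervals of the day 7 difference all lay between -0.33 and 0.41, that is, between 20.4% below and 32.5% above sham on the FPKM + 1 scale. On day 14 they lay between -0.40 and 0.33, and on day 1 between -0.24 and 0.44. A log2 difference of 1 in either direction was thus outside the interval of each of these 70 genes on each day. Most genes shared this, since 97.4%, 91.6% and 93.6% of all genes had intervals within 1 of 0 on days 1, 7 and 14. Within 0.5 of 0 lay the intervals of all 70, against 86.5%, 76.7% and 80.3% of all genes. Smaller changes within these bounds could not be told from none. The model takes 1 spread per gene for all 4 groups, while the median within-group SD of a member was 0.042 in sham and 0.15 on day 14. Intervals with a separate spread for each group were not computed.

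The members are highly expressed, and their share of calls was therefore also set beside that of other genes at such levels. Of 1760 genes with a mean of at least 50 FPKM, 20.5% were called on day 7 and 17.3% on day 14. Of the 70 members at that level, 2 (2.86%) were called on day 7 and 1 (1.43%) on day 14. Their median within-group SD in log2(FPKM + 1) was 0.11, against 0.093 for the 1760 genes. The part of this spread in the share of calls was not tested. The plot of differences by complex shows how closely the members lay around 0.

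**Figure D2:**
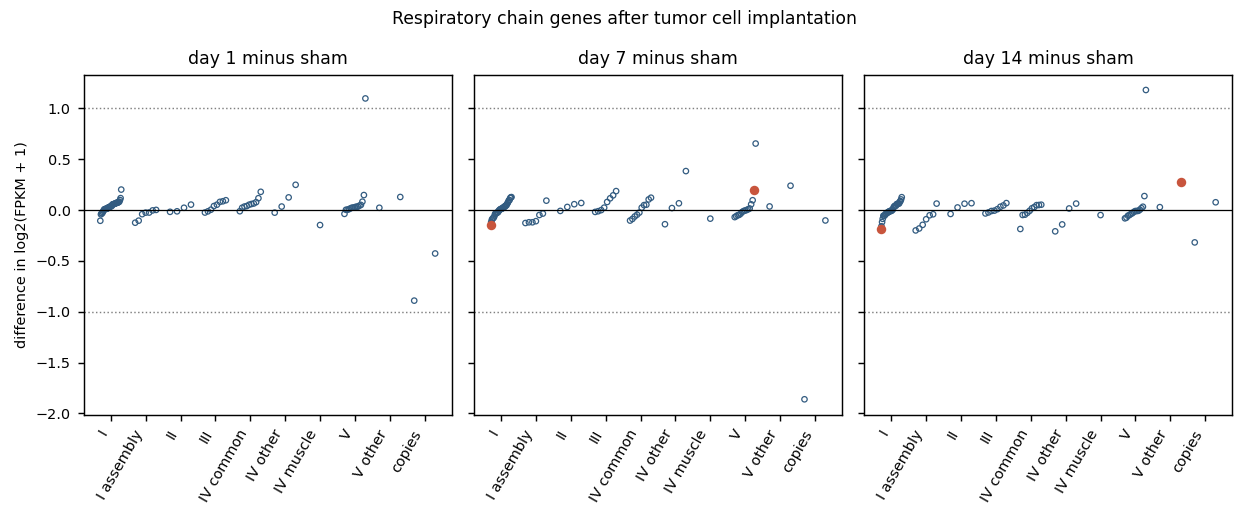
Difference from sham in log2(FPKM + 1) (vertical axis) of the 87 tested genes by class (horizontal axis) on days 1, 7 and 14. Open points were not called, filled red points were called at an adjusted p of at most 0.05, and dotted lines mark a difference of 1 in either direction. Most genes lie close to 0, and the far points are Atp5f1 and the copies Ndufa10l1 and Cox7a2l2.

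In complex I, 1 of 34 tested subunits was called on day 7 and on day 14, Ndufs1 both times. Ndufs1 encodes the largest core subunit, which carries iron-sulfur clusters on the path from NADH. The level was 78.1, 80.9, 80.1 and 75.9 FPKM in the sham samples. It was 74.1, 72.4 and 73.0 FPKM on day 1, 72.8, 71.5 and 68.5 on day 7, and 71.6, 67.5, 65.6 and 71.2 on day 14. Every sham sample was above every tumor sample, and the 2 tumor samples left out, at 66.3 and 70.3 FPKM, were also below sham. Of these, day 1 replicate 2 was the lowest of its group for 54 of 87 members, and day 7 replicate 3 held muscle RNA. The difference was -0.15 ± 0.041 (SE) on day 7, or 9.8% lower, with a limma adjusted p of 0.0245. On day 14 it was -0.19 ± 0.038, or 12.3% lower, with an adjusted p of 0.00635. On day 1 it was -0.10 ± 0.041, with an adjusted p of 0.939. The day 7 call was lost when any of day 7 replicates 2 and 4 or sham replicates 1, 2 and 3 was left out, with adjusted p of 0.0506 to 0.0943. The day 14 call held in the 25 alternative fits, with adjusted p up to 0.0371, but not at the study's cut-offs.

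No other core subunit was called. Ndufv1, which binds NADH, was at 123 ± 2.33 FPKM in sham (SD, n = 4) and 121 ± 8.69 on day 14 (n = 4). Ndufv2, an iron-sulfur subunit, was at 121 ± 4.47 and 114 ± 11.1 FPKM. Ndufs3 and Ndufs8 were at 59.8 ± 1.56 and 67.8 ± 1.80 FPKM in sham and at 59.8 ± 6.93 and 66.8 ± 5.08 on day 14. The highest difference of complex I on day 14 was that of Ndufs7, an iron-sulfur subunit, at 0.13 (interval -0.018 to 0.27). The median of the 7 core subunits was -0.039 on day 7 and -0.025 on day 14, and that of the 27 tested accessory subunits was 0.017 and 0.005.

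No accessory subunit of complex I was called on any day. Ndufa2 had the highest difference on day 7, 0.13 (interval -0.065 to 0.32), from 60.9 ± 3.37 FPKM in sham (n = 4) to 66.7 ± 4.58 (n = 3). Ndufs5, the most abundant, was at 205 ± 2.71 FPKM in sham and 211 ± 22.3 on day 7. The assembly factors were not called either. Their median difference was -0.11 on day 7 and -0.090 on day 14, with 6 of 7 below 0 on both days. Ndufaf1 was at 13.0 ± 1.01 FPKM in sham and 11.9 ± 1.07 on day 7, with an adjusted p of 0.214, and Ndufaf6 at 9.80 ± 0.564 in sham and 8.55 ± 1.87 on day 14. Ndufaf3 was the exception, at 12.8 ± 1.32 FPKM in sham and 13.7 ± 1.96 on day 7.

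In complex II, which is also an enzyme of the citric acid cycle, 0 of 4 subunits were called on any day. Sdha, the flavoprotein that oxidizes succinate, was at 92.9, 92.7, 97.8 and 96.7 FPKM in sham. It was at 92.7, 96.2 and 94.4 FPKM on day 7 and at 94.7, 91.4, 91.2 and 92.6 on day 14. The groups overlapped, and the day 7 difference was -0.008 with an interval of -0.083 to 0.066. Sdhb was at 114 ± 1.76 FPKM in sham and 118 ± 4.81 on day 7. The membrane anchor Sdhd had the highest difference of the complex on both days, 0.070 on day 7 and 0.068 on day 14, and Sdhc, the other anchor, stood at 0.031 and 0.063.

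In complex III, 0 of 8 subunits were called on any day. Uqcrfs1, the Rieske iron-sulfur protein, was at 91.5, 94.3, 94.2 and 93.5 FPKM in sham and at 91.3, 90.1 and 96.7 on day 7. The groups overlapped, with a difference of -0.011 (interval -0.12 to 0.098). The core proteins Uqcrc1 and Uqcrc2 were at 135 ± 3.41 and 74.0 ± 4.36 FPKM in sham and at 140 ± 10.6 and 73.6 ± 3.77 on day 14. The small subunit Uqcrq had the highest difference on both days, 0.19 on day 7 (interval -0.032 to 0.41, adjusted p of 0.234) and 0.069 on day 14. Uqcr11 was at 233 ± 25.9 FPKM on day 7 (n = 3) and 207 ± 27.5 on day 14 (n = 4), and Uqcrh, the hinge protein, at 159 ± 21.6 and 155 ± 19.5.

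In complex IV, 0 of 10 common subunits were called against sham on any day. Cox4i1, the common form of subunit 4, was at 536, 537, 527 and 532 FPKM in sham. It was at 531, 519 and 614 FPKM on day 7 and at 492, 499, 646 and 535 on day 14. Sham samples lay close together, while the highest sample of day 7 and of day 14 lay above all of them and the lowest samples below. The differences were 0.053 and 0.018, with intervals of -0.13 to 0.24 and -0.15 to 0.19. Cox5a and Cox5b were at 353 ± 8.76 and 291 ± 4.47 FPKM in sham and at 349 ± 41.0 and 282 ± 24.6 on day 14. Cox7c, a small subunit, had the lowest differences of the common subunits, -0.10 on day 7 and -0.19 on day 14 (interval -0.40 to 0.024). Ndufa4, now counted with complex IV despite its name, was at 221 ± 10.5 FPKM in sham and 216 ± 34.7 on day 14.

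Other relatives of complex IV subunits were low, except Cox7a2l, which helps to join complexes III and IV, at 178 ± 0.886 FPKM in sham and 187 ± 20.5 on day 14. Cox4i2, the lung form of subunit 4, was at 2.96 ± 0.398 FPKM in sham and 2.62 ± 0.607 on day 14. The testis forms Cox7b2 and Cox8c were at 0 in 14 of 16 samples each, with highest values of 0.13 and 0.07 FPKM. Cox6b2, another testis form, was at 1.73 ± 0.244 FPKM in sham and 2.56 ± 0.416 on day 7, with a difference of 0.38 (interval -0.042 to 0.81) that was not called.

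Ndufa4l2, a hypoxia-induced relative of Ndufa4, was the one member called between tumor days. It was at 2.34, 1.77, 2.33 and 2.02 FPKM in sham and at 2.80, 2.87 and 2.42 on day 1. It was at 1.80, 2.42 and 2.26 FPKM on day 7 and at 1.36, 1.59, 2.0 and 1.84 on day 14. Day 14 lay below all kept day 1 samples, and sham overlapped day 14 but not day 1. From day 1 to day 14 the level fell by 0.46 ± 0.106 in log2(FPKM + 1), or 27.2% lower on the FPKM + 1 scale, with a limma adjusted p of 0.0224. Neither day was called against sham, although day 14 was under quantile normalization (adjusted p of 0.0499). The call was lost without day 1 replicate 1 or 3 or with these groups fitted alone, with adjusted p up to 0.105.

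In complex V, 1 of 15 subunits was called on day 7 and 0 on day 14. Atp5g2 is 1 of 3 genes for subunit c, the ring that turns as protons pass, and the genes make the same mature protein. Its level was 121, 115, 120 and 120 FPKM in sham. It was 117, 128 and 124 FPKM on day 1, 133, 131 and 147 on day 7, and 129, 126, 142 and 127 on day 14. Every sample of days 7 and 14 was above every sham sample. Day 7 replicate 3, left out and with muscle RNA, was highest at 187 FPKM. The day 7 difference was 0.20 ± 0.053, or 14.8% higher, with a limma adjusted p of 0.0192. On day 14 it was 0.14 ± 0.049, with an adjusted p of 0.0753. The day 7 call was lost without day 7 replicate 4 or sham replicate 2 and under median-ratio scaling, with adjusted p of 0.0553 to 0.0881.

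The other genes for subunit c were not called. Atp5g1 was at 182 ± 1.73 FPKM in sham and 176 ± 21.1 on day 7, and Atp5g3 at 261 ± 2.16 and 262 ± 29.9. Atp5b, the catalytic subunit, was at 752, 756, 770 and 757 FPKM in sham and at 727, 694 and 805 on day 7. On day 14 it was at 688, 715, 796 and 690 FPKM, with 3 samples below and 1 above all sham samples and a difference of -0.074 (interval -0.20 to 0.052). Atp5a1, the alpha subunit, had the lowest day 14 difference, -0.081 (interval -0.17 to 0.014). Of the central stalk subunits, Atp5c1, Atp5d and Atp5e were at 144 ± 5.17, 376 ± 15.1 and 162 ± 4.41 FPKM in sham and at 137 ± 7.43, 363 ± 19.1 and 174 ± 15.2 on day 7.

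Atp5sl shares its symbol with ATP synthase but is Dmac2 in RefSeq, a factor for assembly of the membrane arm of complex I. It was at 16.3, 17.4, 18.5 and 16.0 FPKM in sham and at 19.3, 17.2 and 19.7 on day 1. It was at 20.02, 20.3 and 20.4 FPKM on day 7 and at 18.7, 20.1, 24.6 and 20.5 on day 14. Every sample of days 7 and 14 was above every sham sample. The day 14 difference was 0.28 ± 0.074, or 21.4% higher, with a limma adjusted p of 0.0236. The day 7 difference was 0.24 ± 0.080, with an adjusted p of 0.0562, and it was called with all 16 samples (0.0401). The day 14 call was lost without sham replicate 1 or 4 or with these groups fitted alone, with adjusted p of 0.0658 to 0.0751. The plot of the called genes shows all samples.

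**Figure D3:**
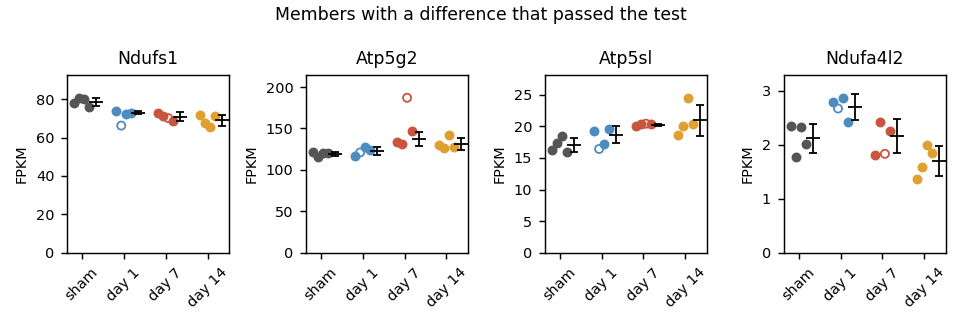
FPKM (vertical axis, from 0) of the 4 genes called in any comparison, by group (horizontal axis). Filled points are the 14 samples used, open points are the samples left out by the study, and the black mark with bars is the mean ± SD of the filled points. Ndufs1 lies lower in every tumor sample than in any sham sample, and Atp5g2 and Atp5sl lie higher on days 7 and 14.

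Values of 3 members were erratic between samples of the same group and are uncertain. Atp5f1, subunit b of ATP synthase, ranged from 0 in sham replicate 2 to 29.6 FPKM in day 14 replicate 3. Ndufa10l1, a copy of Ndufa10, ranged from 0 to 36.8 FPKM, and Cox7a2l2, a copy of Cox7a2l, from 23.1 to 69.6. The counting of reads that match several copies is not described in enough detail to say how they were shared out. Ndufa10 itself, at 94.4 ± 3.66 FPKM in sham and 93.6 ± 9.05 on day 14, and Cox7a2l showed no such jumps.

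Between tumor days, 1 member was called in all. From day 7 to day 14, limma called 0 members and 0.0998% of all genes (0.00713% higher and 0.0927% lower). Ndufa4l2 alone had an unadjusted p under 0.05, as did 9.96% of all genes. From day 1 to day 7, limma called 0 members and 10.4% of all genes (9.02% higher and 1.42% lower, with 0.884% past the study's cut-offs). Atp5g2 alone had an unadjusted p under 0.05, as did 23.6% of all genes. From day 1 to day 14, Ndufa4l2 was called lower, against 6.96% of all genes (5.9% higher and 1.06% lower). The median difference of the members was -0.021, -0.027 and -0.036 in these comparisons. Comparisons that share a group share its samples and are not independent.

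The spread of the members within a group was also compared. The median SD of a member within a group, in log2(FPKM + 1), was 0.042 among sham rats and 0.059 on day 1, and it was 0.12 and 0.15 on days 7 and 14. Over all genes tested it was 0.076, 0.073, 0.098 and 0.14 in the same order. The spread of the last 2 groups was smaller without 1 library in each. These libraries were picked after their high values had been seen, so a fall was bound to follow. Without day 7 replicate 4 the median SD of a member on day 7 was 0.038 (n = 2) and that of all genes 0.053. Without day 14 replicate 3 these were 0.091 and 0.10 on day 14 (n = 3). Members were then less spread than the median gene in both groups, but on day 14 still more spread than among sham rats. With all 14 samples and a mean of at least 50 FPKM, the median within-group SD was 0.11 for members and 0.093 for all genes.

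In both libraries most members were high. Day 7 replicate 4 and day 14 replicate 3 were the highest sample of their group, among those kept, for 74 of 87 members each. The median member stood 0.14 above the sham mean in the former and 0.17 in the latter, while it stood at -0.035 and -0.081 in the other kept day 7 samples and at -0.13, -0.091 and 0.030 in the other day 14 samples. The shift took in complexes I, III, IV and V alike, from 0.14 to 0.21 in day 7 replicate 4 and from 0.16 to 0.27 in day 14 replicate 3, and complex II less, at 0.086 and 0.14. The median of all genes tested stood 0.059 and 0.022 above the sham mean in these libraries. How many of all genes were highest there was not counted.

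Other values moved with these libraries. Their sums of FPKM, 471357 and 467557, were the highest of the 14 samples, of which no other was above 454009. The median mitochondrial ribosomal protein gene stood 0.17 and 0.18 above the sham mean there. Macrophage markers were least raised within their groups there, by a median of 2.20 and 1.38, and neuron markers were least lowered, at -0.11 and -0.040. The part of these in the result was not tested.

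**Figure D4:**
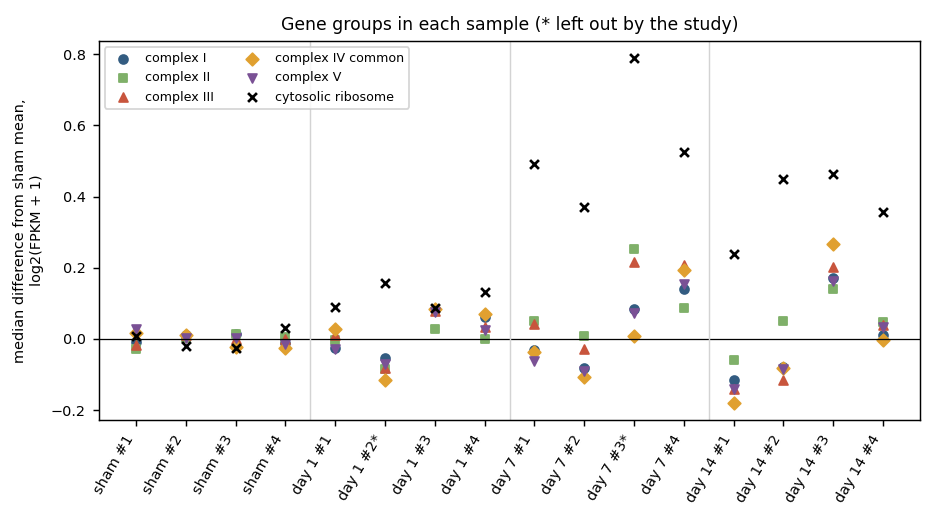
Median difference from the sham mean in log2(FPKM + 1) (vertical axis) of each complex and of cytosolic ribosomal protein genes in each of the 16 samples (horizontal axis), with an asterisk on samples left out by the study. Sham samples lie within 0.03 of 0. All complexes are above 0 in day 7 replicate 4 and day 14 replicate 3, and also in day 1 replicate 3 and day 7 replicate 3. The ribosomal protein genes lie above 0 in each tumor sample.

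Without both of these libraries, 7 members were called on day 7, with Atp5g2 and Atp5sl higher and Ndufs1, Cox5a, Cox7c, Ndufab1 and Ndufb10 lower. On day 14, 7 were called, with Atp5sl higher and Ndufs1, Atp5a1, Atp5b, Cox7c, Ndufa3 and Ndufab1 lower. All genes were called at 20.1% and 20.5% in these fits. The median difference of the members was then -0.053 on day 7 and -0.063 on day 14. This alternative was chosen after the values had been seen.

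The choice of scaling moved the members as well. Quantile normalization shifted the median of all genes on day 7 from 0.042 to -0.070. It called 13 of the 87 members tested, 12 lower and Atp5g2 higher, and 26.1% of all genes. The calls over all genes went from 80.7% higher to 36.6% higher. Relative to the median of all genes, the members stood at -0.035 on day 7 in the main scaling. They stood at -0.041 with median-ratio scaling, at -0.041 with equal sums of FPKM and at 0.025 after quantile normalization. Of these scalings, quantile normalization alone changed the sign on day 7. On day 14 quantile normalization called 11 of the 87 members, 9 of them lower, and 18.9% of all genes. Relative to all genes, the members were then at -0.033 in the main scaling and at -0.007 after quantile normalization. The share of calls that were higher was 78.8% and 41.6%. Ndufs1 was lower and Atp5g2 and Atp5sl were higher under every scaling tried.

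The muscle forms were examined apart because of the muscle RNA in day 7 replicate 3. Cox6a2, the muscle form of subunit 6a, was at 368 FPKM in that sample, at 8.29 in sham replicate 4 and at 0 to 1.13 in the other 14. Cox8b, the muscle form of subunit 8, was at 80.1 FPKM in day 7 replicate 3, at 5.30 in sham replicate 4 and at 0 to 0.97 elsewhere. These are the samples with the highest levels of Acta1, skeletal muscle actin, at 6693 and 177 FPKM, against 4.41 to 7.78 in the others. Neither Cox6a2 nor Cox8b passed the filter in the 14 samples, and neither was tested.

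Cox7a1, the muscle form of subunit 7a, did not follow them. It was at 1.64 FPKM in day 7 replicate 3 and 1.91 in sham replicate 4, within or near the 1.14 to 1.83 of the other samples. The identifier of this row is not in the RefSeq table, and the row that RefSeq names Cox7a1 was at 2.80 and 3.02 FPKM in these samples and at 2.41 to 3.80 elsewhere. Neither row followed the muscle markers.

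The common partners were not called on any day. Cox6a1 was at 629, 628, 629 and 634 FPKM in sham and at 622, 610 and 730 in the kept day 7 samples. It was at 465 FPKM in day 7 replicate 3, the lowest of all 16, and at 576 to 775 on day 14. Cox8a was at 550 ± 18.6 FPKM in sham (n = 4) and 596 ± 88.5 on day 7 (n = 3). It was at 487 FPKM in day 7 replicate 3, close to the 484 of day 14 replicate 1. Cox7a2 was at 160 ± 21.8 and 174 ± 13.3 FPKM, and at 140 in day 7 replicate 3, within the sham range. Of the 87 tested members, 27 were above the other 3 day 7 samples there, 44 within their range and 16 below. Uqcrfs1 at 127 FPKM, Atp5a1 at 399 and Atp5e at 254 were among those above. The plot of muscle forms and partners shows how far this sample stood apart.

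**Figure D5:**
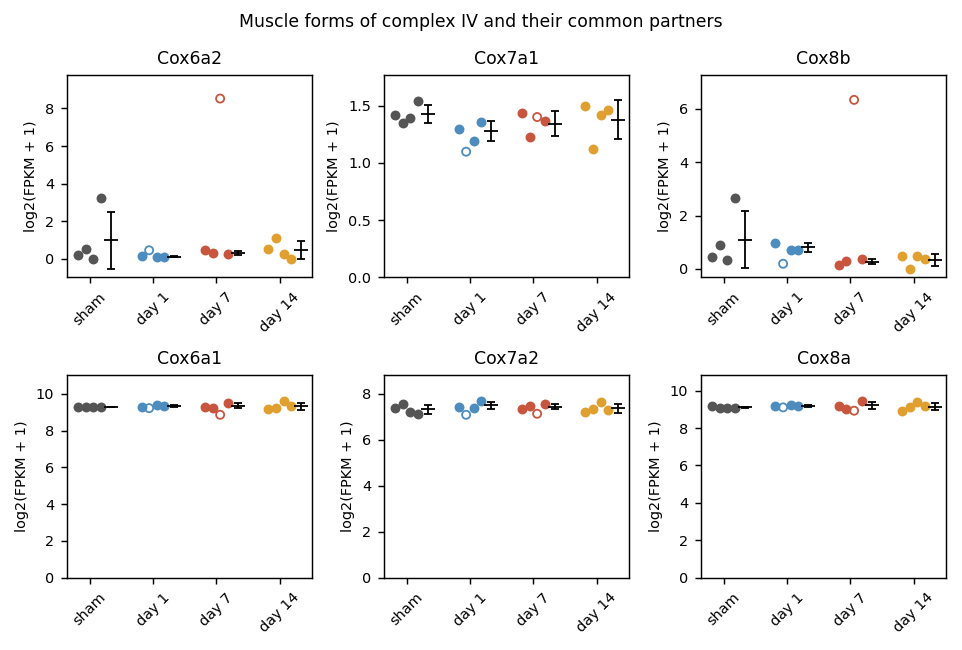
log2(FPKM + 1) (vertical axis) of the muscle forms Cox6a2, Cox7a1 and Cox8b (top) and of their common partners Cox6a1, Cox7a2 and Cox8a (bottom) by group (horizontal axis). Filled points are the 14 samples used, open points the 2 left out, and black marks the mean ± SD of the filled points. Cox6a2 and Cox8b are high in the open day 7 point and raised in 1 sham sample, and Cox7a1 is not.

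Other mitochondrial genes gave a frame for the members. Of 75 tested genes for mitochondrial ribosomal proteins, which make the subunits encoded by mitochondrial DNA, 1 rose on day 7 and on day 14, Mrpl23 both times, by 0.52 and 0.38. None of 19 assembly factors of complex IV was called on either day. Of 19 assembly factors of the other complexes, Atpaf2, for ATP synthase, rose on day 7 by 0.20, and 0 were called on day 14. Of 22 regulators of mitochondrial biogenesis, 0 were called on day 7 and 1 was lower on day 14. Ppargc1a, a coactivator of mitochondrial genes, was at 4.93 ± 0.266 FPKM in sham (n = 4) and 4.37 ± 0.459 on day 7 (n = 3), with an adjusted p of 0.151.

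Pathways that feed the chain held few calls in number. Of all genes, 17.9% were called on day 7 (14.5% higher and 3.45% lower) and 15.1% on day 14 (11.9% higher and 3.21% lower). The lists hold 16 to 22 genes, and their shares were not tested against these. Of 17 tested genes of the citric acid cycle, 2 (11.8%) fell on day 7, Idh3a by 0.16 and Dlat by 0.28 on the log2 scale, and Idh3a alone (5.88%) fell on day 14, by 0.15. Idh3a is part of an NAD-dependent isocitrate dehydrogenase, and Dlat is part of pyruvate dehydrogenase. Of 16 genes for ubiquinone synthesis and other electron carriers, 1 (6.25%) fell on both days, Gpd2, the mitochondrial glycerol phosphate dehydrogenase, by 0.28 on day 7 and by 0.20 on day 14. Of 22 tested genes of glycolysis and its transporters, 5 (22.7%) were called on day 7, all higher, and 4 (18.2%) on day 14, with 3 higher and 1 lower. The genes that rose on day 7 were the hexokinases Hk2 and Hk3, the glucose transporters Slc2a1 and Slc2a3, and the lactate transporter Slc16a3. Hk3, a hexokinase of white blood cells, went from 0.08 ± 0.0408 FPKM in sham to 5.98 ± 1.27 on day 7 (n = 3), and Hk2 from 1.30 ± 0.228 to 2.77 ± 0.384. Macrophage markers were raised in the same samples, and their part in these differences was not tested.

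The cytosolic ribosome, another large set of abundant genes, was unlike the chain. Of 82 tested genes for its proteins, 73 rose on day 7 and 70 on day 14, with median differences of 0.47 and 0.37. The chain's medians on these days were 0.007 and -0.008. Of 19 neuron markers, 6 fell on day 7 and 5 on day 14, with median differences of -0.18 and -0.14. These counts describe the lists and were not tested against the members.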

How the data were processed

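RNA was sequenced from rat DRGs in 16 samples, 4 in each of 4 groups. By the study's methods the reads were mapped with HISAT and Bowtie2 and quantified with RSEM, and the authors deposited FPKM values per gene, rounded to 2 decimals. The genome build, annotation and versions are not given in the sources used here. FPKM holds no read totals, so depth is unknown and no counting error was computed. RSEM divides reads that match several genes, so values of near-identical copies are uncertain.

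log2(FPKM + 1) was computed, and genes that reached 1 FPKM in 3 or more of the 14 samples kept by the study were tested. All 4 groups entered 1 linear model per gene (limma 3.58.1, R 4.3.3, lmFit and eBayes with intensity trend), with Benjamini-Hochberg adjustment over all 14023 genes. The procedure was tested on simulated data. Intervals are 95% intervals of the model, which takes 1 spread per gene for all 4 groups.

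The members, lists and tests were chosen with earlier results of these data known. Values of 1 member are not reported here. Named genes were the core or catalytic subunits, the tissue forms with their partners, the most abundant member and the highest and lowest difference of each complex, and up to 3 genes per pathway list by smallest p on day 7. Cox7c, Atp5g1, Atp5g3, Atp5g2, Atp5sl, Ndufa10, Ndufaf4, Ndufs4, Slc2a1, Slc2a3, the copies and members described as called only in an alternative were named after their values were seen. Of the values above 0, at most 2.78% were identical between any pair of samples, so none was a copy. Replicate numbers recur between groups but belong to different rats.

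The alternatives were all 16 samples, only the groups compared, no trend, quantile and median-ratio scaling, no filter or a mean of 5 FPKM or more, 0.1 as pseudocount, the study's cut-offs, the replicate block, each sample left out, and, added after seeing the data, equal sums of FPKM and leaving out 2 libraries together. Count models were not run, since the tables hold FPKM. Figures used Python 3.11.15 and matplotlib 3.10.9.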

Additional observations from a re-analysis of the deposited data

Results flagged for a closer look

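For part of the 92 members, Dixon's test at the 95% level was run on 188 sets of 4 values (1 gene in 1 group). Its nominal rate of about 1 in 20 is no fair reference here, since genes of 1 library can move together. Where the other 3 values are 0, any value above 0 is set apart. Members outside these sets were not screened, so the share found is not one for the whole chain. A single sample stood apart from the other 3 of its group in 16 of the 188 sets (8.51%). In day 7 replicate 3, the library with muscle RNA, these were Cox6a2 at 368 FPKM, Cox8b at 80.1 and Atp5a1 at 399, and Cox8c at 0.07 where the others were at 0. In sham replicate 4, which also held muscle RNA, they were Cox6a2 at 8.29 FPKM and Cox6a1 at 634, where the others were at 628 to 629. In day 7 replicate 4 they were Cox4i1 at 614 FPKM and Cox5b at 319, both high. Cox5a stood high in sham replicate 1 at 367 FPKM, Cox6b2 in day 7 replicate 2 at 3.04, and Cox6a2 in day 1 replicate 2 at 0.37. Cox7b2 at 0.07 FPKM in sham replicate 2 and 0.13 in day 7 replicate 2, and Cox8c at 0.07 in sham replicate 2, were set apart from zeros. Low values were those of Sdhb at 104 FPKM in day 1 replicate 2 and Ndufaf1 at 12.3 in day 1 replicate 3.

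The effects of days 1 and 14 differed from each other for Ndufa4l2, at 0.25 and -0.21 against the same sham samples. The difference between the days was -0.46, with a limma adjusted p of 0.0224, lower in 4 of 4 day 14 samples than in any kept day 1 sample.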

How the results depend on the processing

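No called value reversed. The median differences of the members on days 1, 7 and 14 moved by less than the spread between samples in the alternatives run. On days 7 and 14 the sign of the median was nevertheless not stable. The median ran from -0.053 to 0.043 on day 7 and from -0.063 to 0.033 on day 14. The count of members called depended on the settings. On day 7 against sham (2 called) it was 13 under quantile normalization, 7 without day 7 replicate 4 and day 14 replicate 3 together, 4 with only the groups compared, 0 with the study's cut-offs, and 0 to 3 with single samples left out. It was 0 without day 7 replicate 4 or sham replicate 2, and 1 without day 7 replicate 2 or sham replicate 1. On day 14 against sham (2 called) it was 11 under quantile normalization, 7 without both libraries, 5 with equal sums of FPKM, 1 with only the groups compared, 1 with subunits of the common chain only, 0 with the study's cut-offs, and 1 to 4 with single samples left out, with 4 without day 14 replicate 3 and 1 without sham replicate 1 or 4. From day 1 to day 7 (0 called) it was 7 under quantile normalization, 7 without both libraries, 1 with equal sums, and 0 to 1 with single samples left out, being 1 without day 7 replicate 4 or day 14 replicate 3. From day 1 to day 14 (1 called) it was 5 under quantile normalization, 8 without both libraries, 0 with a mean of at least 5 FPKM, with only the groups compared, with the study's cut-offs or with the common chain only, and 0 to 3 with single samples left out, being 0 without day 1 replicate 1 or 3, 2 without day 7 replicate 4 and 3 without day 14 replicate 3. Ndufa4l2, with a mean of 2.13 FPKM, was outside both the 5 FPKM filter and the common chain, and Atp5sl was outside the latter. Their loss under these settings was thus fixed in advance. Of all genes, quantile normalization called 26.1% on day 7 and 18.9% on day 14. From day 1 it called 13.2% to day 7 and 6.86% to day 14. Without both libraries these shares were 20.1%, 20.5%, 14.4% and 12.5%. With only the groups compared they were 21.7%, 8.24%, 13.4% and 0.996%, and with equal sums 17.6%, 14.4%, 9.28% and 6.02%. With single samples left out they were 12.3% to 22.2%, 9.74% to 17.8%, 6.01% to 13.9% and 2.11% to 10.1%. The cause of the moves in the count of members was not tested.

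With the replicate block, 1 member and 6.96% of all genes were called from day 1 to day 7. Under the same block, Atp5g2 was called on day 14 with a limma adjusted p of 0.0493. The deviations of samples from their group means had a median r of 0.0026 over 18 pairs with the same number, with 4 over 0.1. Over 55 pairs with other numbers the median r was -0.0047, with 8 over 0.1. A batch behind the numbers was not tested, since the labels name none. Of 3213 values of single genes under the alternatives, 180 (5.6%) changed sign. Count models could not be run on FPKM, and read depth, which FPKM does not hold, limits what can be said of the genes near 0.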
